A study of Mus musculus with 9 samples.

Results

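The 4 wild-type libraries of T follicular helper (Tfh) cells from mouse Peyer's patches are described here as one group, by the messenger RNA they hold. They are all the libraries labelled WT among the 9 of the series and carry replicate numbers 1, 3, 4 and 5. The mice are wild-type littermates of animals with a mutant Tgfbr1 allele. No label gives an age, sex, strain, treatment or sorting day. Whether the libraries are from different animals is also not labelled, and a standard deviation (SD) here therefore measures only how far these libraries spread. The cells were isolated by flow cytometry on surface CD4, CXCR5 and PD1. Each library was made from 300 pg of RNA with a non-stranded SMART-Seq kit for low input. The question is what these cells express, how highly, and how alike the libraries are. No genotypes are compared and no test between groups was made. The study's title places these cells in work on responses of T cells to TGF-beta and on Tfh cells with type 2 features.

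Peyer's patches are lymphoid organs in the wall of the small intestine, where antigens and microbes from the gut lumen keep germinal centres active. Tfh cells enter B cell follicles with the chemokine receptor CXCR5 and there support B cells through the cytokines IL-21 and IL-4, the ligand CD40L and the costimulatory receptor ICOS. The repressor BCL6 defines the lineage and BLIMP1, encoded by Prdm1, opposes it. PD1, encoded by Pdcd1, is the inhibitory receptor used with CXCR5 to tell these cells from other CD4+ T cells.

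Levels are given as CPM or as TPM. CPM (counts per 1000000) is a gene's deposited expected count relative to the library's total, scaled by the TMM method of edgeR, and serves to compare libraries. TPM is the same count per kilobase of exon, scaled to sum to 1000000 in each library, and serves to compare genes. Values of single libraries are given in the order of replicates 1, 3, 4 and 5, and errors are SD with n = 4. The totals of the libraries ran from 32977949 to 43872732 counts. At 1 CPM or more in all 4 libraries stood 11423 of 54146 genes (21.1%). Among the 21906 protein-coding genes, 10499 (47.9%) did so and 9698 (44.3%) stayed under 1 CPM in all 4. The counts of list members given below are to be read against these shares. Expression was concentrated: 897 genes held 50% of all counts and 5308 held 90%.

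The 5 markers that name these cells were all expressed at high level. All 20 genes of the T cell receptor list reached 1 CPM in every library with them, where 47.9% of all protein-coding genes did. Pdcd1 lies at chr1:94038305-94052553 on the minus strand (GRCm38) and had 1484, 2035, 2163 and 1489 CPM in the 4 libraries. Replicates 3 and 4 were the high pair and replicates 1 and 5 the low pair. Its mean of 2847 ± 511 TPM placed it at rank 19 of all protein-coding genes. Cxcr5 (chr9:44511787-44561877, minus strand) had 1311, 1336, 1359 and 1193 CPM, a mean of 1198 ± 51.7 TPM and rank 58. Icos (chr1:60977927-61000320, plus strand) had 1029, 1151, 1207 and 1166 CPM, a mean of 1019.97 ± 69.4 TPM and rank 76. These last 2 genes were steady, with coefficients of variation (CV, SD over mean) of 5.69% and 6.74%, against 19.9% for Pdcd1. Il21 (chr3:37222759-37232636, minus strand), the cytokine that drives germinal centre B cells, had 699, 533, 610.2 and 749 CPM and ranked 330 at 379 ± 62.2 TPM. Bcl6 (chr16:23965052-23988852, minus strand) had 313, 399, 428 and 312 CPM and ranked 956 at 166 ± 23.5 TPM. Replicates 3 and 4 were again the higher pair for Bcl6, but the lower pair for Il21. In every library the order per length was Pdcd1, Cxcr5, Icos, Il21 and Bcl6, and the TPM ranges of neighbours in that order did not overlap, but the order of Cxcr5 and Icos turned with the mean length of basic transcripts in place of the exon union (900 and 1075 TPM, with Icos the higher in all 4 libraries). Since the sort used the PD1 and CXCR5 proteins, the high levels of Pdcd1 and Cxcr5 are not independent of how the cells were chosen. The same holds for Cd4, which had 609, 895, 951 and 747 CPM and ranked 152 at 609 ± 108 TPM.

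**Figure D1:**
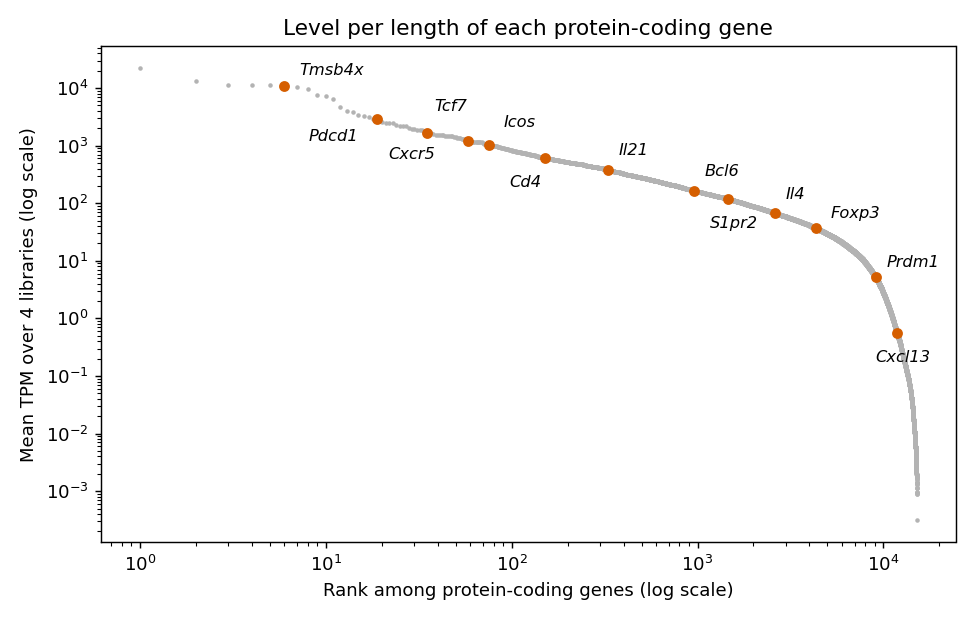
Mean TPM over the 4 libraries (vertical, log scale) against the rank of each protein-coding gene with a count (horizontal, log scale); orange points are named genes. Pdcd1, Cxcr5 and Icos lie within the first 100 ranks, Bcl6 near rank 956, and Prdm1 and Cxcl13 on the falling end of the curve.

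The sequence upstream of the start differs in CG content between these markers. It is shown for Pdcd1 and Il21, which have few CG pairs, and Bcl6, which has many. Each run holds the 250 bases before the RefSeq start (GRCm38.p6, minus strand, written 5′ to 3′ along the gene), with CG in capitals. The windows are chr1:94052554-94052803, chr3:37232637-37232886 and chr16:23988853-23989102.
Pdcd1: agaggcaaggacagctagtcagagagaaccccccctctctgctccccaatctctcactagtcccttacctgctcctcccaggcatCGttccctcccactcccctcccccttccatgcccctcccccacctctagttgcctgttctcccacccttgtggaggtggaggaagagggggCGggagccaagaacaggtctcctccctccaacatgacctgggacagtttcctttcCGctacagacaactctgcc
Il21: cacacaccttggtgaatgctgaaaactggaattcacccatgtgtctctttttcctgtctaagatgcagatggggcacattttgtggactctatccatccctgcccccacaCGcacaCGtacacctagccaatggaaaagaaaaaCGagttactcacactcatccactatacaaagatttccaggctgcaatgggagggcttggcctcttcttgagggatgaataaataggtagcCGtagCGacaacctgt
Bcl6: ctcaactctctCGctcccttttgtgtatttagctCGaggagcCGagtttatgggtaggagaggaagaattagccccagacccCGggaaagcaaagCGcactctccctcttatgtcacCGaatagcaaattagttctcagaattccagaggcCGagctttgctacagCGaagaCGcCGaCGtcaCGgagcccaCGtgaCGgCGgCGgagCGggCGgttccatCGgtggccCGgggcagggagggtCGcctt

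The windows hold 3, 5 and 21 CG pairs for Pdcd1, Il21 and Bcl6. With the ratio of observed CG to that expected from the counts of C and G, they score 0.149, 0.357 and 0.987. Of 15134 protein-coding genes with a RefSeq window of this length, 48.9% had a ratio of 0.6 or more. The share was 71.6% among the 7994 of them at 1 CPM or more in all 4 libraries and 20.2% among the 5979 under 1 CPM in all. None of the 6 B cell help genes with a window (0 of 6) and 1 of 9 costimulatory and inhibitory receptors reached 0.6, against 7 of 12 Tfh transcription factors. The motif TATAAA, searched on both strands, stood in 11.8% of all windows, in 5.84% of the expressed set and in 19.97% of the unexpressed set; it is in none of the 3 windows printed. These shares are descriptions of letters and carry no statement on binding.

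Transcription factors linked to the Tfh fate were all detected, and factors opposing it were led by Id2 and Stat5b, with Prdm1 and Klf2 low. All 18 of 18 factors on the list reached 1 CPM in every library, where 47.9% of all protein-coding genes did. Their median was 206 TPM, where the median of all coding genes so detected was 27.0 TPM. Tcf7, which encodes TCF1 and acts upstream of BCL6, led the list with 1223, 1518, 1547 and 1399 CPM and 1664 ± 164 TPM (rank 35). Batf, an AP-1 family factor needed for Tfh cells, followed at 707 ± 107 TPM, and Ets1 and Tox2 had 536 ± 81.1 and 493 ± 43.6 TPM. Each of these 3 overlapped with its neighbour in the order. Ascl2, a factor that induces CXCR5, had 151, 130.5, 133 and 102 CPM and 245 ± 35.7 TPM. Bcl6 itself stood in the lower part of the list, below Stat3 and beside Id3, with overlapping ranges. In the full set of 116 lymphocyte transcription factors examined, 107 reached 1 CPM in every library, where 47.9% of all protein-coding genes did. The highest was Hif1a, the hypoxia-inducible factor, at 1931 ± 358 TPM. Replicate 5 was the high library for Hif1a, which had 3435, 3396, 3371 and 4567 CPM.

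All 6 opposing factors reached 1 CPM in every library too, where 47.9% of all protein-coding genes did. Id2, an inhibitor of E proteins, had 105, 98.04, 89.8 and 152 CPM and 141 ± 39.2 TPM, and Stat5b, a mediator of IL-2 signals, had 138 ± 13.3 TPM. Prdm1 had 14.2, 8.78, 8.51 and 5.93 CPM and 5.14 ± 1.896 TPM, with replicate 1 the high library. The ratio of Bcl6 to Prdm1 per length was 18.4, 37.8, 41.9 and 43.7, so Bcl6 was the higher gene in each library and by the least in replicate 1. Klf2, which supports recirculation, had 5.08, 7.05, 12.03 and 5.29 CPM and 12.1 ± 4.802 TPM. Id3 and Id2, by contrast, did not keep one order: their ratio was 0.988, 1.66, 1.65 and 0.695.

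**Figure D2:**
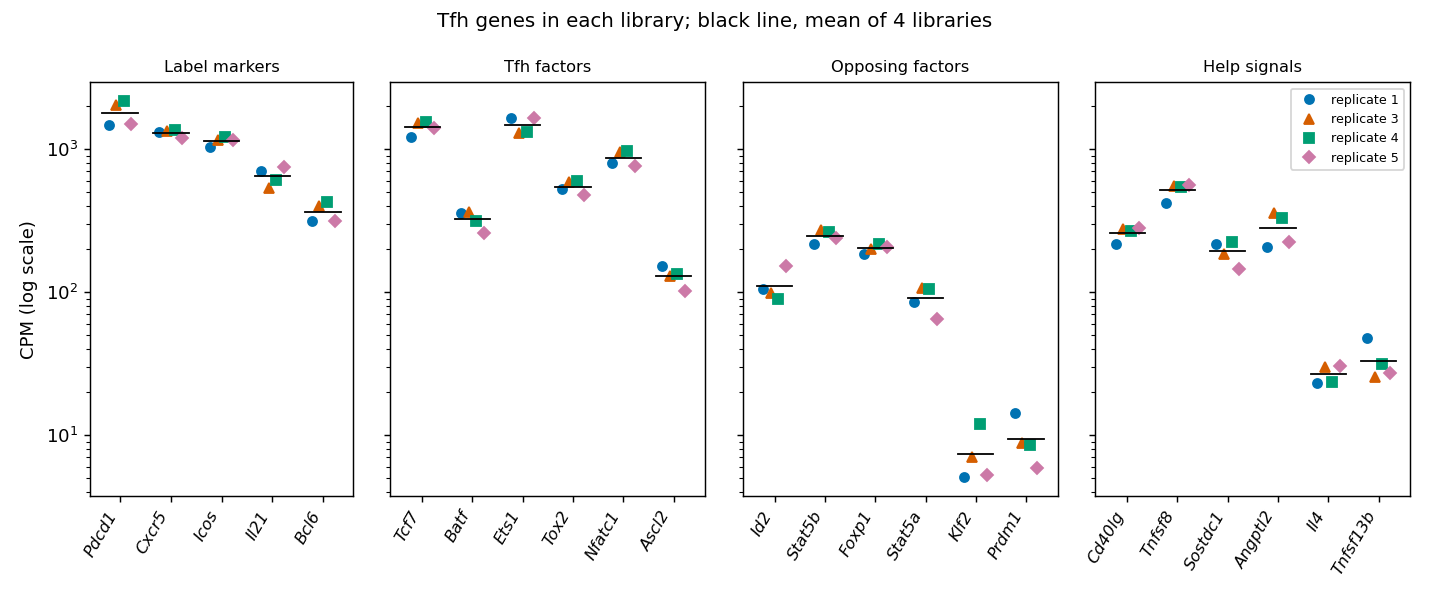
CPM (log scale) of label markers, Tfh factors, opposing factors and B cell help genes; each point is 1 library, marked by replicate, and the black line is the mean of 4. Klf2 and Prdm1 lie below 15 CPM in every library, while the label markers lie above 300.

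Genes for B cell help showed high Icos, Cd40lg, Tnfsf8 and Il21 and almost no Cxcl13. Of 9 genes, 8 reached 1 CPM in every library, where 47.9% of all protein-coding genes did. Cd40lg, the ligand for CD40 on B cells, had 217, 277, 268 and 279 CPM and 640.1 ± 80.7 TPM. Tnfsf8, the ligand of CD30, had 421, 555, 544 and 561 CPM, with replicate 1 the low library. Il21 ranked next and overlapped with Tnfsf8 and with Sostdc1, a secreted antagonist of BMP and Wnt signals that had 218, 186, 225 and 144 CPM and 332 ± 54.3 TPM. Angptl2, a secreted angiopoietin-like protein, had 207, 358, 331 and 223 CPM, and its higher pair was replicates 3 and 4. Il4, the type 2 cytokine made by Tfh cells, had 22.97, 30.1, 23.6 and 30.5 CPM and 67.4 ± 12.3 TPM, and Il21 exceeded it per length by 4.13 to 7.10 times. Cxcl13, the ligand of CXCR5, which human Tfh cells are known to make, had 0, 0.5999, 0.08595 and 0.134 CPM. Its highest library stood below 1 CPM, so these mouse cells carried few counts of it at this depth.

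Other cytokines were sparse. Of 48 interleukins and related genes, 8 reached 1 CPM in every library, 32 stayed under 1 CPM in all, and 24 of those had no count after rounding. Over all protein-coding genes, 47.9% reached 1 CPM in every library and 44.3% stayed under it in all. The highest were Mif, a broadly expressed cytokine, at 729.6 ± 143 TPM, Il16, a ligand of CD4, at 409 ± 29.002, and Il21. Il16 and Il21 overlapped, and Il4 came next, clearly below both. Il2 had 0.0631, 0.265, 0.0287 and 0.162 CPM and Il17a 0, 0, 0 and 0 CPM. Ifng, the type 1 cytokine, had 0.628, 5.54, 0.716 and 0.784 CPM and Il10, a regulatory cytokine, 0.251, 5.13, 0.831 and 0.381. In both cases replicate 3 alone passed 1 CPM, and without it the means fell from 1.92 to 0.706 CPM for Ifng and from 1.65 to 0.485 CPM for Il10. The same library held the most Xcl1 (1.47, 15.5, 2.69 and 1.14 CPM), Ccl5 (3.48, 21.7, 5.67 and 2.19 CPM) and Nkg7 (14.3, 34.1, 10.1 and 3.72 CPM), genes known from cytotoxic and activated T cells. It also held the most Foxp3 (46.3, 77.6, 48.1 and 44.2 CPM). Among cytokine receptors, 31 of 49 were detected in every library, where 47.9% of all protein-coding genes were. Il2rg, the chain shared by the receptors for IL-2, IL-4, IL-7 and IL-21, led at 2255 ± 834 TPM, and Il27ra, Il2rb, Il1r2 (a decoy receptor for IL-1) and Il21r followed at 522, 366, 337 and 274 TPM. Il2ra, the high-affinity IL-2 receptor chain, had only 10.9, 16.4, 3.29 and 6.67 CPM.

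Chemokine receptors were dominated by Cxcr5, with Cxcr6 the only other one above 100 TPM. Of 24 receptors, 10 reached 1 CPM in every library, a share near the 47.9% of all protein-coding genes. Cxcr6, which binds CXCL16 and marks tissue-homing T cells, had 289.8, 151, 144 and 194 CPM and 311 ± 109 TPM, and its replicate 1 was high. Ccr7, which guides T cells to the T zone, Cxcr4, Cxcr3 and Ccr8 came next at 55.1 ± 11.7, 44.2 ± 22.4, 41.001 ± 10.2 and 37.1 ± 8.36 TPM, and neighbours among these 4 overlapped. Cxcr5 exceeded Ccr7 per length by 18.4 to 26.0 times. For position in the tissue, S1pr2, which holds cells in germinal centres, had 328, 304, 345 and 266 CPM and S1pr1, which draws cells to lymph, had 26.5, 27.8, 34.6 and 29.1 CPM. Per length S1pr2 exceeded S1pr1 by 3.50 to 4.72 times. Among integrins, Itgb2 and Itgal, which together form LFA-1, led at 991 ± 59.2 and 526 ± 95.1 TPM, and Itgb7, part of the gut-homing integrin, had 279.7 ± 68.99 TPM. Gpr183, the oxysterol receptor EBI2, was at 309 ± 45.3 TPM.

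**Figure D3:**
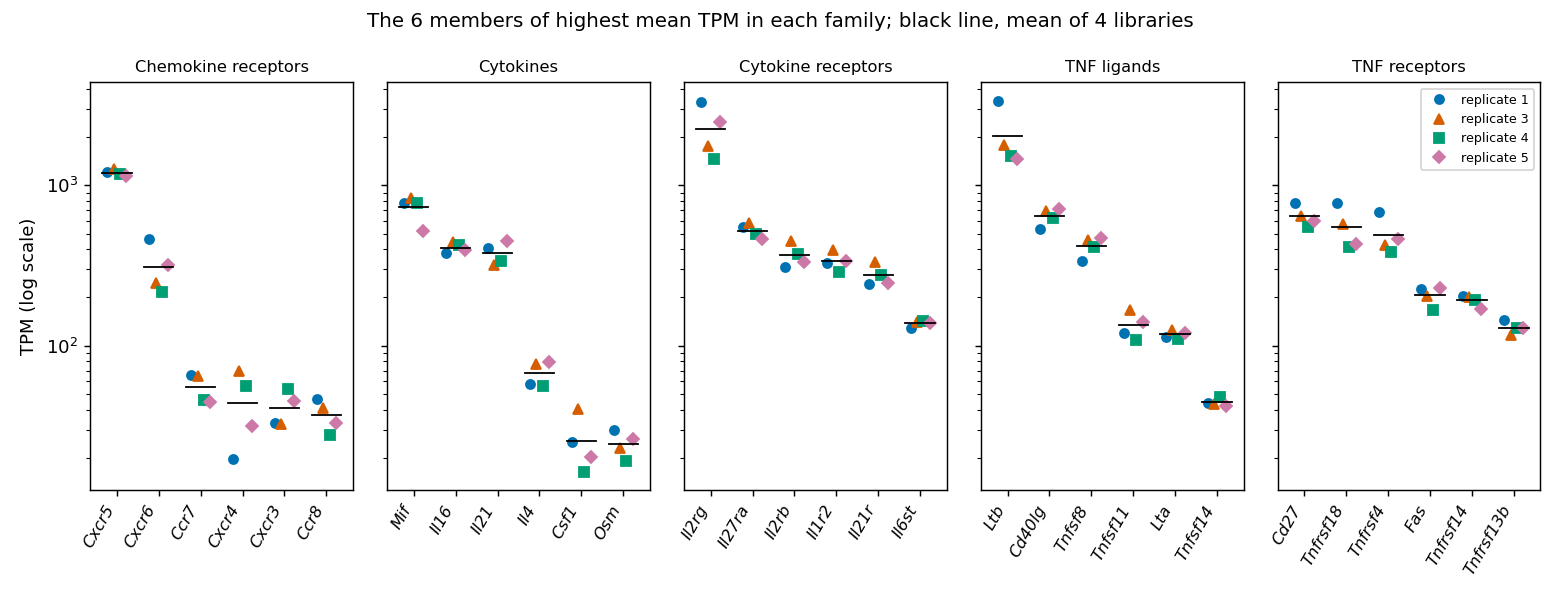
TPM (log scale) of the 6 members of highest mean in each of 5 families; each point is 1 library and the black line is the mean of 4. Cxcr5 stands alone at the top of the chemokine receptors, and replicate 1 is the highest library for Il2rg and Ltb.

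Costimulatory and inhibitory receptors were nearly all present. Of 13, 12 reached 1 CPM in every library, where 47.9% of all protein-coding genes did. After Pdcd1 and Icos came Tigit (480.4 ± 36.2 TPM) and Ctla4 (479.6 ± 73.8 TPM), both inhibitory and not separable from each other, and then Vsir and Cd28 at 245 ± 42.1 and 234 ± 34.8 TPM. Ctla4 had 281, 388, 399.9 and 386 CPM, so replicate 1 was its low library. SLAM family genes, which hold T and B cells together, were present for 7 of 11 members, where 47.9% of all protein-coding genes were. They were led by Cd48 at 494 ± 62.02 TPM and by the adaptor SAP, encoded by Sh2d1a, at 255 ± 32.6 TPM. Among TNF ligands Ltb, which builds lymphoid tissue, had 1661, 859, 797 and 693 CPM and 2033 ± 900.5 TPM. Replicate 1 was the high library for Ltb. Among the TNF receptors Cd27, Tnfrsf18 (GITR) and Tnfrsf4 (OX40) led at 645 ± 96.1, 547 ± 167 and 489 ± 133 TPM.

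Gata3, Foxp3 and Tbx21, factors that define other helper fates, each had a lower mean TPM than Bcl6. Of 14 genes listed for those fates 13 reached 1 CPM in every library, where 47.9% of all protein-coding genes did. They were led by Stat4 and Stat6, signal transducers for IL-12 and IL-4, at 264 ± 24.99 and 259 ± 28.8 TPM. Gata3, the type 2 factor, had 94.9, 85.7, 72.3 and 72.98 CPM and 63.04 ± 9.23 TPM. It exceeded Tbx21, the type 1 factor, by 7.76 to 10.3 times per length. Foxp3, which marks regulatory T cells and the follicular regulatory cells that the same surface proteins also select, averaged 36.4 ± 11.3 TPM. Bcl6 exceeded it per length by 3.51 to 6.07 times. In bulk RNA, fewer cells of a type and less RNA per cell cannot be told apart. Izumo1r, the folate receptor family member FR4 known from both Tfh and regulatory cells, was among the higher genes at 1239.5, 879.6, 753 and 817 CPM (rank 57).

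Members of the TGF-beta pathway were measured at moderate level. TGF-beta ligands bind the type II receptor TGFBR2, which activates TGFBR1, and SMAD2 and SMAD3 with SMAD4 carry the signal to the nucleus. Of 13 genes 11 reached 1 CPM in every library, where 47.9% of all protein-coding genes did. Tgfbr1 had 49.5, 83.1, 75.6 and 95.6 CPM and 35.8 ± 9.87 TPM, and Tgfbr2 196, 400.2, 419.9 and 243 CPM and 118 ± 39.9 TPM. Tgfbr2 exceeded Tgfbr1 per length by 2.03 to 4.44 times and was the higher gene in all 4 libraries. Smad4 and Smad2 had 122 ± 14.7 and 34.4 ± 3.23 TPM, and the repressors Ski and Skil 62.8 ± 21.4 and 36.3 ± 4.92 TPM. Tgfb2 and Smad6 stayed under 1 CPM in all 4 libraries.

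The genes of highest level overall were not Tfh genes. Among nuclear protein-coding genes without ribosomal proteins, H2-D1 (a classical MHC class I chain), Tmsb4x (thymosin beta 4, which binds actin monomers) and Ubb (polyubiquitin) led at 11117 ± 1224, 11059 ± 1891 and 10589.7 ± 5422 TPM. B2m, H2-K1, Actb and Ftl1 followed, and Pdcd1 was the 13th in that order. H2-D1 and H2-K1 share sequence, so their split by the counting model is uncertain. Ubb had 10124, 4118, 3906 and 4890.02 CPM, with replicate 1 far above the others. Actb had 2287, 5826, 5840.4 and 2475 CPM, so replicates 3 and 4 stood at over 2 times the other pair. Among constant segments of the T cell receptor, Trbc2, Trbc1 and Trac had 6209.5 ± 585, 5152 ± 727 and 4374 ± 972 TPM, with Trbc1 above Trbc2 when the mean length of basic transcripts was used (4677 and 3855 TPM). Lck, the kinase that starts receptor signalling, had 4215, 2790.3, 2805 and 2815 CPM. In contrast, the T cell surface gene Thy1, singled out after its values were seen, had 3.36, 6.74, 6.13 and 4.97 CPM. Cd3d exceeded Thy1 per length by 215 to 514 times, or by 70.9 to 170 times with the mean length of basic transcripts. Of the variable segments of the receptor, 63 of 130 alpha and 17 of 35 beta reached 1 CPM in every library. Of all genes 21.1% did so, and of protein-coding genes 47.9%. Replicate 5 held the highest summed CPM of both kinds of segment. Near-identical segments share reads, so single segments and these counts of segments are uncertain.

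Among non-coding genes, Malat1 had 9238, 6039.7, 5527 and 12924 CPM and 3741 ± 1611 TPM, with replicates 5 and 1 high. An unnamed locus of uncertain coding status, RP24-458F14.4 (chr19:5801941-5802393, plus strand), was listed at 16766 ± 4217 TPM. It lies inside Malat1 (chr19:5795690-5802672, minus strand), and without strand information reads of the 2 genes cannot be told apart.

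Genes of cell state were also expressed. Immediate early genes, which rise within minutes of stimulation, were present for 20 of 24 members, led by Junb at 566 ± 253 TPM and Nfkbia at 535 ± 99.01 TPM. Proliferation genes reached 1 CPM in every library for 29 of 30, but with a median of 9.26 TPM. For both lists the share over all protein-coding genes was 47.9%. The replication genes Mcm4 and Pcna led at 117 ± 10.5 and 107 ± 18.2 TPM, and Mki67, a marker of cycling cells, had 9.29, 12.2, 29.1 and 18.2 CPM. Glycolysis genes were high, with Aldoa, Pkm and Gapdh at 1648 ± 293, 1328 ± 243 and 1048 ± 308 TPM. Heat shock genes had a summed level of 6239.5, 8017, 5384 and 6854 CPM, led by Hspa8 at 1314 ± 333 TPM. Hspa1b, the stress-inducible member, had 114, 599, 427 and 724 CPM and was lowest in replicate 1. It is nearly identical to Hspa1a, so the split between them is uncertain.

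Among B cell genes, Ighm and Cd74 stood at high level. Ighm, the constant region of IgM (chr12:113418558-113422730, minus strand), had 2292, 1755, 1714 and 1923 CPM and 3135 ± 468 TPM, about the level of Pdcd1. Igkc, the kappa light chain, had 53.9, 73.9, 237 and 72.4 CPM. The ratio of Ighm to Igkc per length therefore ran from 2.04 in replicate 4 to 12.002 in replicate 1. Ighm was highest in replicate 1, where Igkc was lowest. Cd74, the MHC class II invariant chain, had 902, 639, 1103 and 549.96 CPM. All 20 B cell markers summed to 3927, 3043, 3898 and 3001 CPM, of which Ighm was the largest part. The mean log2 of CPM plus 1 over the same 20 genes was 4.25, 4.68, 5.48 and 4.67. By that measure replicate 1 was the lowest library and replicate 4 the highest, so the order of the sums follows Ighm in large part. Among the 12 with a mean of 10 CPM or more, 9 spanned over 2-fold between libraries, where 12.5% of all protein-coding genes at that level did.

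Epithelial genes were uneven. The 20 markers summed to 447, 555, 1468 and 529 CPM, so replicate 4 held more than 2 times each of the others. Apoa4 and Fabp1, lipid transport genes of enterocytes, had 179, 92.4, 404 and 156 and 112, 40.4, 159 and 145 CPM. All 12 epithelial genes with a mean of 10 CPM or more spanned over 2-fold between libraries, where 12.5% of all protein-coding genes at that level did. The crypt stem cell gene Lgr5 and the goblet cell mucin Muc2, named here after their values were seen, stayed under 1 CPM in all. Myeloid markers summed to 359, 163, 305 and 167 CPM with replicates 1 and 4 high, led by Cst3 and Lyz2 at 239.6 ± 57.3 and 155 ± 97.4 TPM. Plasma cell markers summed to 487, 483, 725 and 441 CPM, cytotoxic, CD8 and NK genes to 80.8, 138, 90.2 and 61.8 CPM, gamma delta T cell genes to 11.1, 7.68, 5.24 and 7.97 CPM, and red cell and platelet genes to 214, 284, 198 and 96.7 CPM. Cd8a had 0.533, 0.672, 0.917 and 1.903 CPM, 354 to 1201 times below Cd4 per length. Of the 14 stromal and endothelial markers, 9 were under 1 CPM in all libraries, where 44.3% of all protein-coding genes were. Their sum of 309 ± 14.1 CPM came mainly from Pecam1 and Cr1l, at 164 ± 23.1 and 139 ± 18.2 CPM. The part of these genes in the values of the Tfh genes was not tested.

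**Figure D4:**
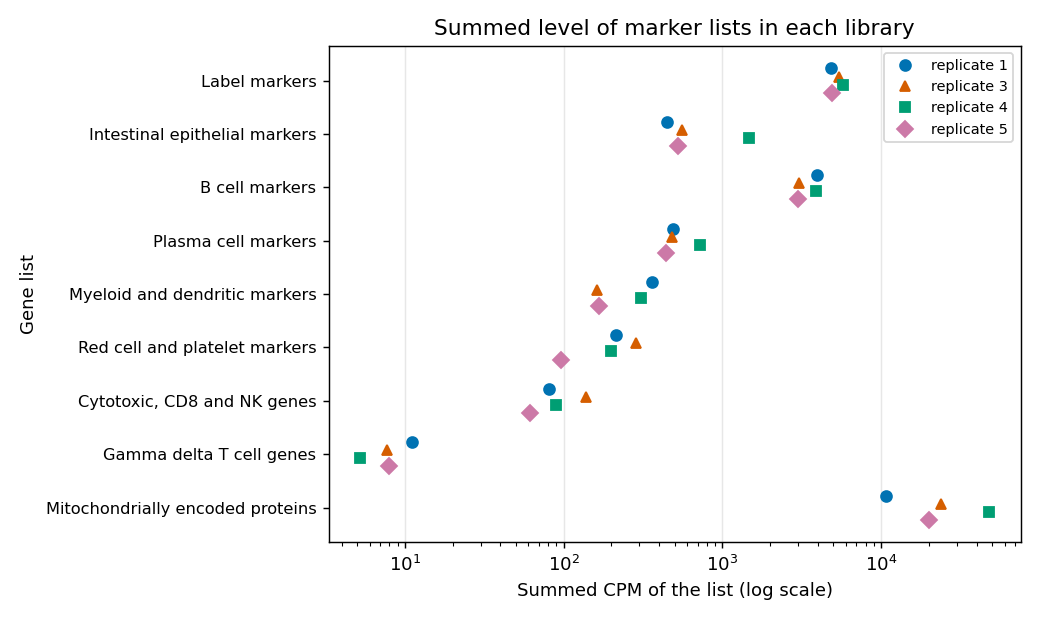
Summed CPM (horizontal, log scale) of the label markers, 7 lists of other cells and the mitochondrially encoded proteins; each point is 1 library. Replicate 4 stands apart in the epithelial sum and holds the highest mitochondrial sum, while the label marker sums of all 4 libraries lie close together.

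The libraries were alike for most genes. Among the 8579 protein-coding genes with a mean of 10 CPM or more, the median CV was 17.7%, where counting error alone would give 2.19%. In 1074 of them (12.5%) the highest library was over 2 times the lowest. That count was 547 without replicate 1 and 697 without replicate 4, with 3 libraries then compared in place of 4. The spread did not shrink steadily with level: the median CV was 20.3% between 10 and 50 CPM, 16.0% from 50 to 200, 14.9% from 200 to 1000, and 18.2% in the 85 genes above 1000. The common biological CV estimated by edgeR, which removes counting error and leans on the more variable genes, was 31.0%. It covers a wider set, with non-coding genes and genes under 10 CPM, so it is not on the same genes as the 17.7%. Coding genes with a mean of 1 to 10 CPM had a median CV of 41.7%. Against the 12.5% over all these genes, none of the 5 label markers, none of 19 T cell receptor genes, 3 of 18 Tfh factors, 3 of 9 chemokine receptors, 17 of 76 ribosomal proteins and 12 of 12 mitochondrially encoded genes spanned over 2-fold. The counts of the label markers and the Tfh factors lie near that share.

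The largest CVs belonged mostly to gut epithelial genes with a high replicate 4. Reg3g, an antimicrobial lectin, had 0, 4.18, 44.95 and 0.985 CPM, Reg1 3.51, 7.77, 128 and 17.2, and Krt19, a keratin, 2.103, 4.82, 44.04 and 4.52. Others of the 12 largest were high elsewhere: Pla2g4c had 0, 58.4, 11.4 and 30.5 CPM, and Nrn1 7.67, 25.3, 3.27 and 4.72. Gm10053 had 3.87, 1.87, 1.98 and 35.9 CPM, a value that is uncertain because it is a near copy of another gene. The steadiest genes were of moderate level. Gnptab, which tags lysosomal enzymes, had 101, 101, 102 and 101 CPM. Slc25a3, the mitochondrial phosphate carrier, had 314, 305, 309 and 307, and Derl1, of the endoplasmic reticulum, 301, 308, 296 and 300.02. These small values of CV are the extreme of 8579 genes over 4 libraries, and some lie below the counting error.

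**Figure D5:**
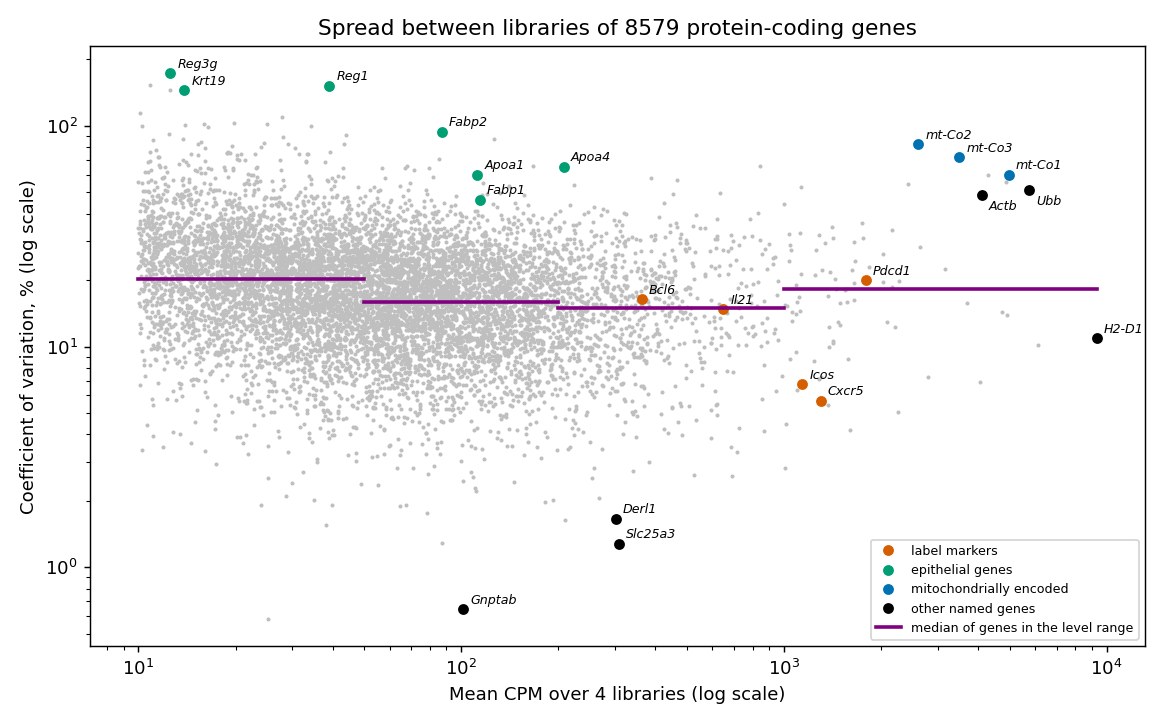
CV over the 4 libraries (vertical, %, log scale) against mean CPM (horizontal, log scale) for 8579 protein-coding genes, with purple lines at the median of each level range. Icos and Cxcr5 lie below the median line of their range, and the epithelial and mitochondrially encoded genes far above it.

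Replicates 3 and 4 were the most alike pair and replicates 1 and 4 the least. Between replicates 3 and 4, 100 of the 8579 genes (1.17%) differed over 2-fold, and between 1 and 4, 563 (6.56%). Spearman's rho across genes was 0.976 and 0.923 for these pairs, and genes are not independent replicates. Mitochondrially encoded genes took 1.38%, 3.19%, 5.91% and 2.72% of the counts, and mt-Co1 had 2601, 4413, 9302 and 3564 CPM. Because these genes are short and abundant they hold 4.15% to 17.5% of all TPM, which lowers the TPM of all other genes in replicate 4 the most. The deviation of a gene in replicate 5 from its mean over the libraries followed its GC content, with a rho of -0.645 across the 8579 genes, and in the other 3 libraries the rho lay between 0.139 and 0.245. With gene length the rho was -0.304, 0.0875, 0.211 and 0.113, so it was largest in size in replicate 1. Each deviation is from the mean of the same 4 libraries, so the values of rho are not independent between libraries. The part of GC content and length in the values of single genes was not tested. The labels name no batch, so no value within a batch can be given.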

How the data were processed

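Per the labels, Tfh cells of Peyer's patches were sorted and sequenced with a low-input kit without strand marking. The authors deposited expected counts per gene, which are estimated counts that need not be whole and share reads between similar genes by a model. The submitters' processing notes name the build mm10 and the tools RSEM 1.3.0, STAR 2.5.3, cutadapt 2.10 and DESeq2; which step used which, and the annotation release, are not given in the sources used here. The 4 WT columns were used, the 5 columns of the other genotype were not.

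CPM used TMM library factors of edgeR 4.0.16 (R 4.3.3). TPM was computed from exon union lengths of GENCODE M21 (GRCm38), where 54079 of the 54146 identifiers were found; without a length a gene has no TPM. A gene was called detected at 1 CPM or more in every library. Spread was taken over protein-coding genes with a mean of 10 CPM or more. The common biological CV came from counts rounded to whole numbers, after filterByExpr (minimum count 10, minimum total 15). Upstream sequences are RefSeq (GRCm38.p6).

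Genes were named from the label markers and Cd4, the 20 highest nuclear coding genes without ribosomal proteins, the 5 highest non-coding genes, the 6 highest members of each of 43 lists (all members of lists of up to 12), the 12 coding genes of largest and of smallest CV, and 24 genes fixed by name. The members and lists were chosen with earlier results of these data known. Il2ra, Thy1, Lgr5 and Muc2 lie outside that rule and were added after their values were seen. Tgfb2 and Smad6 also lie outside it and are named as the members of their list under 1 CPM in all 4 libraries. A few genes that the rule selects are not reported here. Alternatives were other library factors, thresholds and gene lengths, DESeq2 1.42.0 dispersions, and leaving out each library in turn. Ratios of genes under other lengths were added after the data were seen. Reads carry no molecular identifiers, so counting errors cover counting alone.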

Additional observations from a re-analysis of the deposited data

Results flagged for a closer look

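A library is listed here when its distance from the nearest of the other 3 was large for the range of all 4, a rule that flags about 1 in 20 groups by chance. It picked out 30 of 308 named genes and 2 of 43 list sums. The named genes include the 12 coding genes of largest CV and the 12 of smallest CV in these same libraries. The count of genes flagged therefore cannot be set against that rate, and the tally by replicate partly reflects how the genes were chosen. The share of list sums flagged, 2 of 43, lies near the rate of about 1 in 20. Replicate 4 was the high library for both sums and for 10 of the 30 genes. Its summed CPM was 1468 for intestinal epithelial markers, where the next library had 555, and 725 for plasma cell markers, where the next had 487. Its CPM was 34.8 for Lypd8, 44.04 for Krt19, 44.95 for Reg3g, 127.7 for Reg1, 39.7 for Reg3b and 78.4 for Alpi, all known from gut epithelium. It was also highest for Cd79b (44.2 CPM), a B cell receptor chain, and Igkc (237 CPM, next 73.9), the kappa light chain. Igkc is a member of the plasma cell list and makes up much of the excess of that sum in replicate 4. Krt19, Reg3b and Alpi are likewise members of the epithelial list. The flags of these genes and of the 2 sums are therefore not independent. Cd163l1 and Gp9 were flagged at 0.573 and 0.143 CPM against no counts elsewhere, which is a handful of counts.

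Replicate 1 was high for Ubb (10124.5 CPM, next 4890.0), Lck (4215 CPM, next 2815), Pfn1 (3741 CPM) and Tnfrsf4 (303 CPM), and low for Ctla4 (281 CPM) and Tnfsf8 (421 CPM). Replicate 3 was high for Foxp3 (77.6 CPM, next 48.1), Il10 (5.13 CPM), Ifng (5.54 CPM), Xcl1 (15.5 CPM) and the collagen gene Col3a1 (11.1 CPM). Replicate 5 was high for Hif1a (4567 CPM, next 3435), Mcm4 (149.6 CPM), Gm10053 (35.9 CPM), AC108412.2 (73.4 CPM), the receptor segments Trav14n-3 (51.0 CPM) and Trbv4 (93.3 CPM), and Ppbp (0.246 CPM against no counts). It was low for Mif (122 CPM) and Psmb9 (209 CPM), a subunit of the immunoproteasome.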

How the results depend on the processing

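The number of genes at 1 CPM or more in all 4 libraries was 11418 and 11424 with other scalings. With 1 library left out, and counted over the rest, it lay between 11550 and 11704. With the limit at 0.5 CPM in all 4 libraries it was 12288, and with 10 counts in each library 13024. The count of coding genes spanning over 2-fold was 2996 with genes from a mean of 1 CPM and 314 with genes from 50 CPM, and lay between 547 and 851 with 1 library left out. The median CV was 20.6% and 15.8% at those limits and between 14.2% and 18.4% with 1 library left out. The common biological CV was 62.1% with no filter on low counts, 21.01% as the median gene-wise dispersion of DESeq2, and between 30.4% and 32.7% with 1 library left out. The 100 highest genes held 20.6% of the counts, 18.9% without mitochondrially encoded genes, and 33.2% per kilobase. Over all genes the markers ranked 29 (Pdcd1), 70 (Cxcr5), 89 (Icos), 358 (Il21) and 1013 (Bcl6) by mean TPM. With the longest transcript as length, Cxcr5 ranked 83, Pdcd1 36, Il21 239 and Icos 110, and with the mean basic transcript Cxcr5 ranked 115, Pdcd1 50, Il21 155 and Icos 91, so that Icos passed Cxcr5. By CPM, Bcl6 ranked 401, Il21 172 and Icos 72. Among coding genes alone Cxcr5 ranked 58 and Pdcd1 19. The cause of these shifts was not tested beyond the gene sets and lengths that define them. Of 196 values of single genes and list sums recomputed with other library factors or 1 library left out, 4 moved by over 1.5 times, all of them means without replicate 3: Ifng (0.706 from 1.92 CPM), Il10 (0.485 from 1.65), Il2 (0.0841 from 0.130) and Cxcl13 (0.0731 from 0.205). With the longest transcript as length, Bcl6 exceeded Prdm1 by 29.6 to 70.5 times, and with the mean basic transcript Tgfbr2 exceeded Tgfbr1 by 1.33 to 2.92 times. No paired analysis was possible because the libraries form 1 group. No alternative changed the depth; values under 1 CPM, such as those of Cxcl13 and Il2, rest on few counts.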

Other observations

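Survival genes of the BCL2 family were led by Bcl2a1b and Bcl2a1d, relatives of the anti-apoptotic protein A1, at 1004 ± 113 and 731 ± 81.3 TPM. These near-identical copies share reads, so the split between them is uncertain. Bax, which promotes apoptosis, had 305 ± 87.4 TPM, Mcl1 182 ± 74.3 and Bcl2 75.1 ± 8.12. Mcl1 had 93.1, 278, 258 and 183 CPM, lowest in replicate 1. All 8 GIMAP GTPases, which support lymphocyte survival, reached 1 CPM in every library, where 47.9% of all protein-coding genes did. Gimap3 and Gimap6 led at 2487 ± 364 and 1153 ± 272 TPM.

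Regulators of G protein signalling, which dampen chemokine receptors, reached 1 CPM in every library for 12 of 21 members. That share is near the 47.9% of all protein-coding genes. Rgs10, Rgs16 and Rgs19 led at 401 ± 40.3, 142 ± 36.9 and 139 ± 23.02 TPM. S1pr2 and Fas, often listed for germinal centre B cells, were among the steadier genes here, with CVs of 10.98% and 11.1%.

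The 250 bases upstream of the 200 coding genes of largest CV held a CG ratio of 0.6 or more in 50% of cases, against 73.5% for the 200 of smallest CV and 71.6% for all those detected in every library.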
